A study of Homo sapiens with 4 samples.

Results

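The single guide RNA (sgRNA) used to direct targeted DNA methylation to the promoter CpG island (CGI) of ISG15 has many partial matches in the human genome, and those with exactly 5 mismatches over its 20 bases are described here. The members were the sites on either strand of chromosomes 1 to 22 and X of hg19 that had 5 mismatches, were followed by an NGG protospacer adjacent motif (PAM), and carried at least 1 of the mismatches in the 10 bases next to the PAM. There were 915 such sites, and they were set against the 12864 new MBD-seq peaks of the wild type library, of which 12792 lie on these chromosomes. The rule for a site uses the genome sequence and no measured value. Only 2 further sites had 5 mismatches with none of them PAM-proximal, and neither lay in a new peak or in a CGI.

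HEK293 cells, a human embryonic kidney line, were transiently transfected with plasmids for dCas9 fused to the SunTag peptide array, for Ab-3A3L (the scFv antibody against the peptide, fused to the catalytic domain of wild type DNMT3A and the C-terminal part of DNMT3L) and for the sgRNA, and cells that carried all plasmids were sorted after 3 days. Methylated DNA was pulled down with GST-MBD2 and sequenced. Each of the 4 conditions (untreated, wild type, K844E and R887E) had 1 library. The wild type list was analysed here, the untreated cells enter only through the authors' calling of peaks as new, and neither mutant library was used.

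Cas9 first reads the PAM and then pairs its guide with the DNA from the PAM outwards, so that mismatches far from the PAM are tolerated better than mismatches next to it. The catalytically inactive dCas9 follows the same order. An NAG motif is a weak PAM, and most other motifs are hardly bound. DNMT3A, the catalytic subunit, methylates CpGs de novo and DNMT3L stimulates it, while the MBD domain retains DNA in proportion to its methylated CpGs. CGIs are CpG-rich stretches, mostly at promoters, that are usually free of methylation. In the untreated cells, however, the paper classed many CGIs as methylated. The comparison with the new peaks asks whether sites that resemble the guide were found in newly methylated regions more often than other sequence of the same kind, and whether this depended on the features that guide dCas9.

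The guide and 11 members that lay in a new peak are shown so that the degree of resemblance can be read. The guide was read from hg19 at its perfect match on the minus strand, chr1:948878-948897, and its capitals mark the 10 PAM-proximal bases. The members carry the 3 bases of the PAM at their end, and their capitals mark the mismatches to the guide. First come the 7 members in a new peak with only 1 PAM-proximal mismatch, the fewest that the rule for a member allows.
ISG15 guide: gttcgctgccTCTCAGCCGC
CRCT1: gttGCGGgcctctcagcAgccgg
ATP2B4: gCGcgGtgcAActcagccgcagg
CDK5R2: CAGcgcGgccGctcagccgccgg
GALNT17: AtCTgctgcTtctcagccTcagg
ENSG00000272896: gtGcgTtCTctcCcagccgcagg
TCP11L1: gCGcgcCgcAtcCcagccgctgg
ITGB3: CACcgctCcctctcagGcgcagg
The other 4 belong, with TCP11L1, to the 5 members with the highest fold enrichment, and have 3 or 4 PAM-proximal mismatches.
MPP7: gGtcgctgcctcCTTgccTccgg
ATRNL1: CGtcgctgcctctGaTccCccgg
KDM2B: gCtcgctgcctTCcTTccgcggg
ASF1A: gttcgGCgcctGGcGgccgcggg

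Of the 915 members, 49 overlapped a new peak by at least 1 bp, or 5.36% (95% exact binomial interval 3.99% to 7.02%). Of all 295693854 windows of 20 bases with an NGG PAM on the same chromosomes, counted in full, 0.698% did so. Each of the 49 members lay in a peak of its own, so that they accounted for 0.383% of the new peaks. The intervals cover counting error only, because all sites were read from 1 library and are not replicates of the treatment. With 1 library per condition, no test between groups of sites was made, and differences below are given as shares with their intervals. Bowtie2 was used with default settings, under which reads that fit several near-identical copies are placed at 1 of them.

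The members were in CGIs and promoters more often than other windows. The guide itself is GC-rich, with 14 G or C of 20 bases, and holds 2 CpGs. CGIs rebuilt by the UCSC criteria held 97 members, or 10.6% (8.68% to 12.8%), against 2.5% of all NGG windows. A start site of a protein-coding gene was within 1000 bp of 88 members, or 9.62%, against 2.33% of the windows. Inside CGIs, 43 of 97 members lay in a new peak, or 44.3% (34.2% to 54.8%), where the share of all NGG windows was 24.9%. CGIs already methylated in untreated cells were not set apart, for the members or for the windows. Outside CGIs, 6 of 818 members did, or 0.733% (0.27% to 1.59%), against 0.0776% of the windows. Thus 43 of the 49 members in a new peak were in a CGI, and both intervals lay above the values of the windows.

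CpG number gave the same order of sites on a finer scale. None of the 254 members with up to 4 CpGs in the surrounding 500 bp lay in a new peak, where a count of 0 allows up to 1.18% and the share of all NGG windows was 4.51e-05%. With 5 to 9 CpGs it was none of 275, which allows up to 1.09%, beside 0.0047% of the windows. Such sequence holds few CpGs for the pulldown to retain, so these counts of 0 are no measurement of methylation. With 10 to 19 CpGs it was 1 of 236 members, or 0.424% (0.0107% to 2.34%), beside 0.14%. The share rose to 7.14% (1.98% to 17.3%) of 56 members with 20 to 29 CpGs, beside 2.0% of the windows. It reached 46.8% (36.4% to 57.4%) of 94 members with 30 or more, beside 29.6%. In this densest class, which held 44 of the 49 members in a peak, the members therefore lay in peaks more often than all windows, with the interval above the windows' value.

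Sites with the same number of mismatches but without an NGG PAM were compared next. There were 12037 sites with 5 mismatches, at least 1 of them PAM-proximal, and a PAM other than NGG or NAG. Of these, 345 lay in a new peak, or 2.87% (2.58% to 3.18%). With NAG it was 20 of 760, or 2.63% (1.61% to 4.04%). The interval of the members, 3.99% to 7.02%, lay above that of the other motifs and narrowly overlapped that of NAG. These groups differed in more than the PAM. The CGI share was 10.6% for NGG, 7.11% for NAG and 8.08% for the other motifs, and 9.62%, 5.66% and 5.98% of the sites lay within 1000 bp of a coding start site. The median number of CpGs in 500 bp was 8 for NGG and 6 for both other groups. Inside CGIs the shares in a new peak were 44.3% (34.2% to 54.8%) for NGG, 37% (24.3% to 51.3%) for NAG and 33.8% (30.9% to 36.9%) for the other motifs, with overlapping intervals. In the class with 30 or more CpGs, they were 46.8% (36.4% to 57.4%) for NGG and 36.8% (33.6% to 40%) for the other motifs. The intervals of the sites with other motifs lay above the values of all NGG windows, 24.9% in CGIs and 29.6% in this class. Outside CGIs, 16 of 11065 sites with other motifs lay in a new peak, or 0.145% (0.0827% to 0.235%), and none of 706 with NAG, which allows up to 0.425%. The interval of the 6 members outside CGIs, 0.27% to 1.59%, lay above that of the other motifs. With all 20 bases of a member inside the peak, it was 4 of 818 members, or 0.489% (0.133% to 1.25%). That interval overlaps the one given for the other motifs. The sites with other motifs outside CGIs were not recounted by this stricter rule, so whether the separation holds under it was not tested. The 6 members had 15 to 38 CpGs in their 500 bp. Within classes of CpG number, in and outside CGIs together, the intervals overlapped, with 7.14% (1.98% to 17.3%) of the members and 3.07% (1.73% to 5.02%) of the sites with other motifs at 20 to 29 CpGs. At 10 to 19 CpGs the shares were 0.424% (0.0107% to 2.34%) and 0.227% (0.0739% to 0.53%). The members thus had a higher share than the other motifs in each of these comparisons. Overlapping intervals do not show that shares are equal, and the part of the PAM itself was not tested.

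The total number of mismatches gave no order of the sites that their intervals could separate. With the same conditions, 1 of 9 sites with 3 mismatches and 2 of 88 with 4 mismatches lay in a new peak, the latter a share of 2.27% (0.276% to 7.97%). With 6 mismatches it was 299 of 6289, or 4.75% (4.24% to 5.31%), where the members had 5.36%. Inside CGIs the shares were 15.4% (1.92% to 45.4%) of 13 sites with 4 mismatches, 44.3% of the members and 38.1% (34.7% to 41.7%) of 758 sites with 6. The sites just inside and just outside the limit of 5 mismatches thus had overlapping intervals. The target itself, which matches without a mismatch, was not in a listed peak. Its nearest new peak was 11419 bp away, and absence from the list is no measurement of its methylation. By targeted bisulfite sequencing, the paper reports strong methylation of the ISG15 locus with the wild type construct, so the list can miss methylated regions. From MBD-seq at this locus, the paper also reports a methylation signal for both mutants. What is missing here is a call in the wild type list.

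Over all members and inside CGIs, the split by PAM-proximal mismatches showed no order from few to many. One PAM-proximal mismatch was carried by 123 members, of which 7 lay in a new peak, or 5.69% (2.32% to 11.4%). For 2 mismatches it was 23 of 402, or 5.72% (3.66% to 8.46%), and for 3 mismatches 12 of 323, or 3.72% (1.93% to 6.4%). With 4 mismatches it was 7 of 63, or 11.1% (4.59% to 21.6%). None of the 4 members with all 5 mismatches next to the PAM lay in a peak, a number too small to place them in the order. Inside CGIs the shares were 4 of 10 members, 20 of 43, 12 of 32 and 7 of 11 for 1 to 4 PAM-proximal mismatches, all with overlapping intervals. For 2 to 4 PAM-proximal mismatches these were 46.5%, 37.5% and 63.6%. The CGI share of the members was 8.13%, 10.7%, 9.91% and 17.5% in the same order, so that the group with 4 PAM-proximal mismatches was also the one most often in CGIs. Outside CGIs the share did fall with more PAM-proximal mismatches, though on only 6 members in a new peak. It was 2.65% (0.551% to 7.56%) of 113 members with 1 mismatch and 0.836% (0.173% to 2.42%) of 359 with 2. None of 291 members with 3 and none of 52 with 4 lay in a peak. Pooled, it was 6 of 472 members with 1 or 2, or 1.27% (0.468% to 2.75%). Of 346 with 3 to 5 there were none, which allows up to 0.867%. The intervals overlap, both singly and pooled.

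The rule did not use the CpGs of the guide, and the members in new peaks kept them more often than the others. The guide holds CpGs that start at positions 4 and 18, counted from 1 at its 5′ end. Across all members the 4 bases of these CpGs were mismatched more often than any other, with 50.8% mismatched at position 5 and 48.6% at position 19. In members in a new peak the corresponding values were 14.3% and 22.4%. Their mismatches fell more often on the A and T of the guide, with 59.2% mismatched at position 2 and 49% at position 13, against 32.3% and 23% of all members. The 49 sites had a median of 15 G or C of 20 bases, against 13 in the members outside peaks and 14 in the guide. Members in a CGI but not in a peak also had a median of 15. Both guide CpGs were kept by 54 members, of which 25 lay in a new peak, or 46.3% (32.6% to 60.4%). Of 286 members that kept 1, the share was 6.64% (4.05% to 10.2%), and of 575 that kept none it was 0.87% (0.283% to 2.02%). The share of members in CGIs rose alongside, from 2.26% over 16.1% to 70.4%. Sites with motifs other than NGG or NAG followed the same order, with 0.687% (0.523% to 0.885%), 5.54% (4.75% to 6.42%) and 26.7% (22.7% to 31.1%). For sites that kept both CpGs and lay in CGIs the shares were 60.5% (43.4% to 76.0%) of 38 members and 44.3% (38.2% to 50.5%) of 264 sites with such motifs, with overlapping intervals.

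The 7 members with 1 PAM-proximal mismatch in a new peak match the guide best next to the PAM. In 4 of them this mismatch was at position 11 or 13, at the distal end of the proximal part, namely T11A at ATP2B4, T11G at CDK5R2 and T13C at TCP11L1 and ENSG00000272896. The remaining 3 were closer to the PAM, with C17G at ITGB3, C18A at CRCT1 and G19T at GALNT17. Here and below a member goes by the protein-coding gene with the nearest start site.
The highest fold among them was 17.9, with a −log10 q of 34.0, at TCP11L1 (chr11:33060743-33060762), 356 bp upstream of the start site. At CDK5R2, which encodes an activator of the neuronal kinase CDK5, the site at chr2:219824965-219824984 lies in coding exon 1, and its peak had a fold of 13. The peak at chr7:70060712-70061481 also had a fold of 13, and reaches 12 of the 20 bases of its site in an intron of AUTS2, at chr7:70061470-70061489. GALNT17, a glycosyltransferase gene, has the nearest coding start site, 535641 bp away. In an intron of ATP2B4, which encodes a plasma membrane calcium pump, the site at chr1:203619712-203619731 lies 54 bp from a summit, and the fold was 12.4. CRCT1 held its site in coding exon 2 (chr1:152488152-152488171), with a fold of 11.8. Upstream of ITGB3, the integrin β3 gene, the site at chr17:45331027-45331046 lies 147 bp from the start site and the fold was 7.25. The lowest of the 7 was 4.72, in an intron of TMEM141 at chr9:139686252-139686271, where the nearest start site belongs to the coding gene ENSG00000272896. Of these 7 sites, 4 lie in CGIs and 5 kept both guide CpGs.

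The peaks that hold a member had a median fold of 9.31, with quartiles of 6.6 and 11.8 and a range from 2.8 to 20.5, against a median of 7.45 and a lower quartile of 5.44 over the whole list. Their median width was 770 bp against 498 bp, and a wider peak covers more sites, and the part of the width in the higher fold was not tested. At the summit they had a median of 19 fragments, as recovered from fold and p-value, with a range from 10 to 40, against 18 over all peaks. The median fold was 12.4 for the 7 peaks with 1 PAM-proximal mismatch, 9.12 for 23 with 2, 9.0 for 12 with 3 and 7.74 for 7 with 4. Their ranges, 4.72 to 17.9, 3.02 to 14.9, 5.66 to 16.8 and 2.8 to 20.5, overlap widely. The members with the highest fold of all and the lowest of all both had 4 PAM-proximal mismatches.

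The highest fold, 20.5 with 32 fragments at the summit, was found at MPP7, a scaffold protein gene of cell junctions, with the site at chr10:28591858-28591877 in exon 1, before the coding part. After TCP11L1, ATRNL1 followed with 16.8 (chr10:116853891-116853910, in an intron 767 bp from the start site). At KDM2B, a histone demethylase gene whose protein binds unmethylated CpGs, the site at chr12:121975979-121975998 lies in an intron, 42930 bp from the start site used, and the fold was 16.1. The site near ASF1A, a histone chaperone gene, at chr6:119215776-119215795, also lies in an intron of MCM9, and the fold was 15.5. All 5 of these members are in CGIs.
The 5 lowest folds were 2.8 at METRNL, 3.02 at DLGAP3, 3.24 at CDH4, 3.72 at CCNJL and 4.29 at the site in coding exon 4 of FBN3. DLGAP3 encodes a scaffold protein of the synapse, CDH4 a cadherin and FBN3 a fibrillin. All had 21 or more fragments at the summit, over local background rates of 4.92 to 9.72, where the genome-wide rate recovered from the list was 0.611. FBN3 held a further member in an intron 249 bp from its start site, in another peak with a fold of 4.81.

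The members in a new peak were not centred on the summits. Their median distance from the summit was 190 bp, with quartiles of 89 and 348 bp, and 14 of 49, or 28.6%, lay within 100 bp. Over all NGG windows in new peaks the median was 169 bp, the quartiles 78 and 342 bp, and 31.7% lay within 100 bp of a summit. The 5 nearest were DLGAP3 at 10 bp, the site near KCNK17 at 16 bp, ENSG00000272896 at 37 bp, CPSF7 at 42 bp and, at 54 bp, ATP2B4, with CRCT1 also at 54 bp. KCNK17 encodes a potassium channel and CPSF7 a subunit of the factor that sets polyadenylation sites. Of these 6 sites, ATP2B4, KCNK17 and ENSG00000272896 lie outside CGIs.

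The 6 members in a new peak outside CGIs were those at ATP2B4, GALNT17 and ENSG00000272896, with 1 PAM-proximal mismatch, and those at COL16A1, KCNK17 and FBN3, with 2. Near COL16A1, a collagen gene, the site at chr1:32181001-32181020 lies between transcripts 11383 bp from the start site, and the peak, with a fold of 9.93, begins within the site. The site near KCNK17, at chr6:39264769-39264788, also lies between transcripts and had 15 CpGs in its 500 bp, the fewest of all 49, with a fold of 6.49 and 28 fragments at the summit. When all 20 bases had to be inside the peak, COL16A1 and GALNT17 dropped out and 4 of 818 members remained outside CGIs.

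Of the 25 members in a new peak that kept both guide CpGs, 18 lay within 1000 bp of a coding start site. They include sites in exon 1, 5′ of the coding part, of ADIPOR1, an adiponectin receptor gene, with a fold of 7.45, and of KCTD3, ASAP2, SURF4 and CCNJL, with folds of 9.31, 11.8, 5.66 and 3.72. Sites in coding exon 1 were found in RNF149, a ubiquitin ligase gene, with a fold of 11.8, in CDK5R2, in GNAL, a G protein α subunit gene, with 11.2, in RHPN2 with 6.89 and in STK3, a Hippo pathway kinase gene, with 9.31. The site of CYP20A1, with 4.83, and that of CDH2, the N-cadherin gene, with 7.45, lie in introns, as does that near PTTG2 in TBC1D1, with 8.69. ADCYAP1, which encodes the neuropeptide PACAP, held its site in coding exon 3 with a fold of 8.55, and the site near SPAG6 lies 4584 bp upstream of the start site with 5.73. Their folds ranged from 3.72 to 17.9 with a median of 8.69, against 9.12 for the members that kept 1 guide CpG and 9.93 for those that kept none.
The members at SPDYE10, SPDYE13 and GATSL2 on chromosome 7 have identical 20 bases, with folds of 7.27, 6.6 and 9.45, and their 500 bp windows are 99.6% to 99.8% identical. Reads of these copies may not be told apart, so that the values of the 3 peaks are uncertain. The sequence they share is shown because it is the only one met in more than 1 new peak.
SPDYE10: gtCcgcGgcGGctcaTccgcggg
A related site near SPDYE3, with a fold of 9.31, differs from them in the 20 bases and by more in the flanks, where the windows are 71.8% to 72.2% identical without gaps.

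Promoters held most of the members in new peaks. Of the 88 members within 1000 bp of a coding start site, 35 lay in a new peak, or 39.8% (29.5% to 50.8%), against 21.2% of all NGG windows in that reach. Beyond it, the share was 1.69% (0.929% to 2.82%). Of the 35, 27 were downstream of the start site, 7 upstream, and the site of CCNJL covered it. All 88 members in that reach were also mostly downstream, with 59, while 28 were upstream and 1 covered the start site. By position, 21 of the 49 lay in introns, 9 in coding exons, 7 in 5′ untranslated exons, 3 in non-coding exons and 9 between transcripts. All 915 members were mostly in introns, with 464, and between transcripts, with 318. Coding exons held 55 of them, non-coding exons 43, 5′ untranslated exons 18 and 3′ untranslated exons 17.

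The remaining 866 members were mostly far from any new peak, with a median distance of 65096 bp and quartiles of 18844 and 172837 bp. Within 250 bp of a peak there were 15 of them, and 29 within 1000 bp. CGIs held 54 members without a peak at the site. In 21 of these the CGI carried a new peak elsewhere, at a median distance of 242 bp from the site, and in 33 it carried none. Examples chosen after their values were seen are the sites at OLFM1 and PHF10, 6 and 44 bp from the edge of a peak. The CGIs with a peak at the member had a median of 123 CpGs, with quartiles of 91.5 and 156.5. Those without one at the member had a median of 132 CpGs and a wider spread, with quartiles of 49.5 and 230.25. In the 500 bp around the site the medians were 57 and 41.5 CpGs in the same order. Of the 97 CGIs that hold a member, 64 carried a new peak anywhere, or 66.0% (55.7% to 75.3%), against 19.7% of all 50607 CGIs. Neither set was split by methylation before treatment. Among CGIs with 100 or more CpGs it was 79.7% (67.2% to 89.0%) of 59, against 65.5% of 7886. With 50 to 99 CpGs it was 69.6% (47.1% to 86.8%) of 23, against 38.2% of 9191. Among those with 20 to 49 CpGs it was 1 of 12 against 4.98%, and with up to 19 CpGs none of 3 against 0.783%.

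Few members were copies of each other. The 915 sites had 852 distinct sequences, of which 20 occurred more than once, in 83 members. The commonest had 19 copies, held no CpG, and none of its copies lay in a CGI or a new peak. Plus and minus strand sites had overlapping intervals, with 27 of 474, or 5.7% (3.79% to 8.18%), and 22 of 441, or 4.99% (3.15% to 7.46%).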

How the data were processed

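The authors mapped reads of 1 wild type library to hg19 with Bowtie2 (default settings), per the methods, and the processing notes of the submitters also name MACS2, whose settings are not given in the sources used here. The deposited list holds for each peak a score (the −log10 q times 10, rounded down, not used), a fold (a ratio of fragments at the summit over a background), its p-value and q-value as −log10, and the summit position. These values are the authors' own. The smallest −log10 q was 2.00.

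Sites with up to 6 mismatches were found by comparing the sgRNA with every window of GRCh37, the build of hg19. The sgRNA was read from the reference beside the ISG15 start site and checked against the methods. CpG islands were rebuilt on unmasked sequence (17 per CpG, -1 per other base; over 200 bp, at least 50% GC, observed/expected over 0.6). CpGs were counted in 500 bp centred on a site. Start sites came from GENCODE release 44 lifted to this build, 1 per gene, for 20174 coding genes. Fragments at the summit were the whole number k for which the fold is (k + 1)/(rate + 1) and the p-value the Poisson probability of more than k, which met the listed values within 0.000403 (−log10 p). That this is how the list was made is an inference. The methods give only an average read number per sample. The depth of the wild type library itself is known only through the recovered fragments, with a median of 18.

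Shares have 95% exact binomial (Clopper-Pearson) intervals, and a count of 0 was taken to allow 3 counts. No p-value was computed. The members and groupings were chosen with earlier results of these data known. Members named are those in a new peak with 1 PAM-proximal mismatch, with the 5 highest or lowest folds, the 5 nearest to a summit, those outside CpG islands and those that keep both CpGs of the guide. Other peak thresholds, overlaps, PAMs, island criteria and PAM-proximal lengths were tried. The steps were tested on simulated data. Scripts ran in Python 3.11.15 with scipy 1.17.1, matplotlib 3.10.9, numba 0.67.0, pandas 2.3.3 and numpy 2.4.6.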

Additional observations from a re-analysis of the deposited data

How the results depend on the processing

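Of 59 alternative values, 45 stayed within the 95% interval (or, for the fold and the summit distance, the quartiles) of the value reported. This count says little for small groups, whose intervals are wide. For the 4 members with 5 PAM-proximal mismatches the interval reached from 0% to 60.2%. With only peaks of at least a −log10 q of 10, 35 members lay in a peak, or 3.83%, with 30.9% in CGIs, and the NAG and other motifs fell to 1.58% and 1.89%. With the peaks at or above the list's median fold, 32 did, or 3.5%, with 29.9% in CGIs, 3.48% of the members with 2 PAM-proximal mismatches, and 1.58% and 1.84% of the sites with NAG and other motifs. All NGG windows fell to 0.444% and 0.44% by the same settings, and those in CGIs to 16.2% and 16.1%. These settings keep fewer peaks by construction. Within 250 bp of a peak lay 55.7% of the members in CGIs, 6.81% of those with 3 PAM-proximal mismatches, 4.0% of the sites with other motifs, 1.11% of all windows and 32.8% of those in CGIs. Counting each distinct sequence once, an alternative chosen after seeing the data, gave 5.52%. No paired analysis was possible because each condition has a single library. The listed peaks had at least 6 fragments at the summit. A site outside them may have gained methylation that was not detectable at this depth or with few CpGs around it.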
